A study of Mus musculus with 12 samples.

Results

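The Gene Ontology (GO) terms described here are those for axons, dendrites, neuronal cell bodies and the projections of neurons, and they were followed through 8 lists of genes with altered H3K4me3 promoters in mouse hippocampus. A term was a member when its name held "axon", "dendrit", "projection", "neuron part" or "cell body" and did not hold "synap". Of the 490 distinct terms listed in any of the 8 tables, 23 met this rule, and they were listed 84 times among 1076 listings. The members fell into 12 compartment terms, which name a place in the cell, and 11 growth and guidance terms, which name how a projection is made, shaped, steered or regulated. Axon guidance and neuron projection guidance had 407 background genes each and the same counts in the 4 lists that had them. They may stand for 1 set of genes, but no gene is named, so this could not be checked.

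H3K4me3, trimethylated lysine of histone H3 at the promoters of active genes, was profiled by ChIP-seq in whole hippocampus of 12 mice at postnatal day 30. The mice were 3 Del/+, heterozygous for a Cre-made loss of the Arf2 to Kansl1 interval, 3 Kansl1+/-, heterozygous for the tm1b allele derived from a single embryonic stem cell clone, and 3 wt littermates of each line, all on C57BL/6N. The loxP sites of the Del/+ line were recombined in the germline by Cre under the Hprt promoter, so all cells of the mouse carry the deletion, which takes 1 copy of Mapt (the axonal microtubule protein tau) along with Kansl1. Kansl1 codes for a scaffold of the NSL chromatin complex, and each mutant group was set against the same 6 wt libraries. Only tables per gene list were analysed. Sequencing depth is therefore unknown, values carry no error from mouse to mouse, and the lists stand as the authors made them.

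A neuron is a polarised cell. Its cell body and dendrites, together the somatodendritic compartment, receive input, and its axon carries the output. The axon starts at the initial segment, a stretch rich in ankyrin-G and voltage-gated sodium channels where action potentials arise, and in myelinated axons the spikes are renewed at the nodes of Ranvier. GO gives the shaft with these segments the name main axon, which leaves out the terminals. Projections grow out and are steered during development by guidance cues such as netrins, slits, semaphorins and ephrins, while the compartment terms also hold the channels, receptors and cytoskeletal proteins of the mature cell. A gene may carry both kinds of label, and none of the genes behind the counts is named in the tables.

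Compartment terms and growth terms were spread over the lists in different ways. The Del/+ up list (512 genes) had 22 of the 23 members, 12 of them compartment and 10 growth terms. Cluster 3 (212 genes), which the study described as raised more in Del/+ than in Kansl1+/-, also had 22, with 11 of each kind. Cluster 4 (162 genes, raised in Del/+) had 12 members, 10 of them compartment terms. Cluster 2 (214 genes, raised in both mutants) had 8, of which 6 were compartment terms. The Kansl1+/- up list (343 genes) had 12 members, 3 compartment and 9 growth terms, and cluster 1 (160 genes, raised in Kansl1+/-) had 8, which were all growth terms. Neither the Kansl1+/- down list (483 genes) nor the Del/+ down list (343 genes) had any. In bulk tissue, more neurons in a sample and more H3K4me3 per neuron cannot be told apart in these counts.

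These counts were read against all terms. The members listed were 34.8% of the 23 for cluster 1 and for cluster 2, 95.7% for cluster 3, 52.2% for cluster 4 and for Kansl1+/- up, and 95.7% for Del/+ up. Of all 490 terms, 38.8% were listed for cluster 1, 21.2% for cluster 2, 25.5% for cluster 3, 18.2% for cluster 4, 61.6% for Kansl1+/- up and 51.0% for Del/+ up, and 2.86% and 0.408% for the Kansl1+/- and Del/+ down lists. The member share, with both kinds pooled, was thus close to the background for cluster 1, below it for Kansl1+/- up and above it for Del/+ up and for clusters 2, 3 and 4. Pooling hides a split by kind. Of the 12 compartment terms 0 were listed for cluster 1, 3 for Kansl1+/- up, 6 for cluster 2 and 10 for cluster 4. Of the 11 growth terms 8, 9, 2 and 2 were listed there. The share over all terms of each kind was not computed, so the counts per kind have no background of their own. The members nest in each other and share genes, so 22 listed terms are not 22 separate results, and no test was made of these shares.

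**Figure D1:**
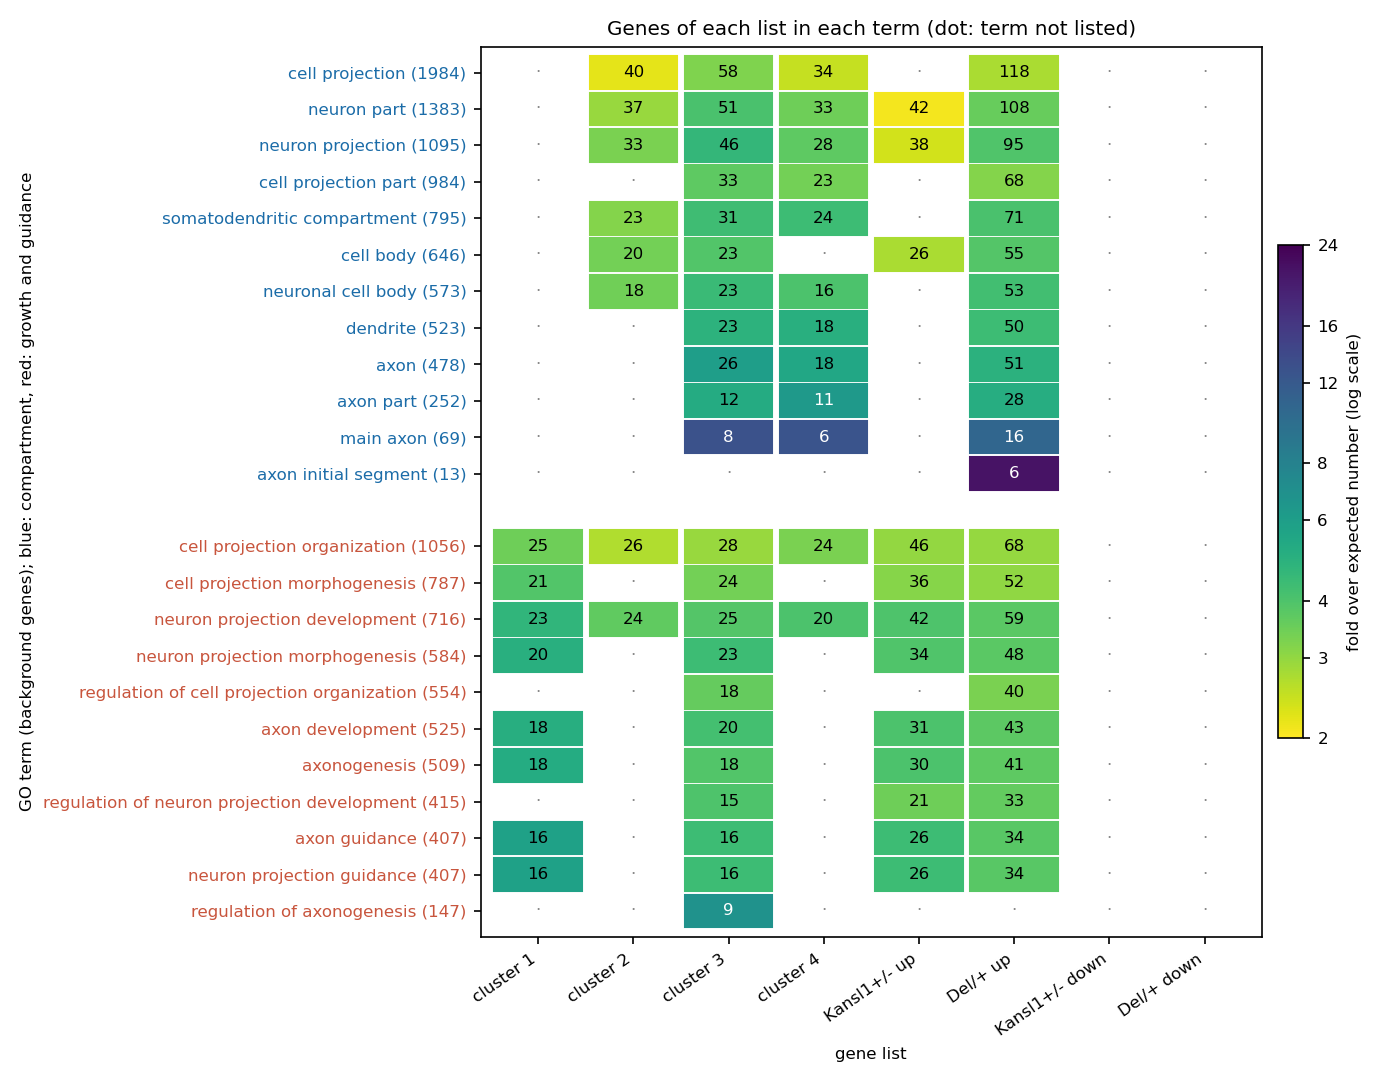
Number of genes of each list (columns) in each of the 23 terms (rows, with the number of background genes), coloured by fold over the expected number on a log scale, with a dot where a term was not listed. The growth terms of cluster 1 and the compartment terms of cluster 4 fill opposite parts of the grid, apart from 2 growth terms of cluster 4, and the columns of cluster 3 and Del/+ up are filled in both.

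Among the compartment terms, neuron part and neuron projection were listed for the most lists, 5 each, all up lists and clusters but cluster 1. The neuron projection term (1095 of the 23468 background genes) took 33 genes of cluster 2 against 9.99 expected, 46 of cluster 3 against 9.89, 28 of cluster 4 against 7.56, 38 of Kansl1+/- up against 16.0 and 95 of Del/+ up against 23.9. As shares of the lists these are 15.4% (95% exact interval 10.9 to 21.0), 21.7% (16.3 to 27.9), 17.3% (11.8 to 24), 11.1% (7.96 to 14.9) and 18.6% (15.3 to 22.2). The interval of the Kansl1+/- up list met neither that of cluster 3 nor that of Del/+ up, and those of the other lists overlapped each other. All of these intervals cover counting error over genes only, and lists that share genes are not independent. In cluster 1 neuron projection was not listed, which at the listing limit (p below 1e-05) allows at most 21 genes, a fold of up to 2.81. Such limits hold if terms were listed by that p alone.

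The axon and the dendrite terms were listed for the same 3 lists, cluster 3, cluster 4 and Del/+ up. Axon (478 background genes) took 26, 18 and 51 genes there against 4.32, 3.30 and 10.4 expected, folds of 6.02 (4.01 to 8.57), 5.46 (3.30 to 8.34) and 4.89 (3.69 to 6.33). Dendrite (523 background genes) took 23, 18 and 50 genes, folds of 4.87 (3.14 to 7.10), 4.99 (3.02 to 7.62) and 4.38 (3.29 to 5.69). The folds of axon and dendrite were within each other's intervals in all 3 lists. The terms share genes and their difference was not tested. For Kansl1+/- up neither was listed, which allows at most 20 axon genes and 22 dendrite genes, folds of up to 2.86 and 2.88. Both limits lie below the lower bounds of the same terms in Del/+ up, which were 3.69 for axon and 3.29 for dendrite. The limits are folds at a single count and carry no interval for counting error. This order therefore does not show a separation beyond counting error, and it was not tested.

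Neuronal cell body was listed for the lists that had dendrite and for cluster 2. Neuronal cell body (573 background genes) took 18, 23 and 16 genes in clusters 2 to 4 and 53 in Del/+ up, folds of 3.44 (2.07 to 5.31), 4.44 (2.87 to 6.48), 4.05 (2.36 to 6.37) and 4.24 (3.22 to 5.46). The somatodendritic compartment (795 background genes) joins it with the dendrite, and in Del/+ up it held 71 genes against 17.3 expected, a fold of 4.09 (3.24 to 5.07). Since 50 dendrite and 53 cell body genes fit into these 71, at least 32 genes carried both labels, and at least 15 and 10 did in clusters 3 and 4. In the background at least 301 of 795 genes carry both. The cell body term (646 background genes), which also takes in cells other than neurons, was listed for cluster 2 with 20 genes, cluster 3 with 23, Kansl1+/- up with 26 and Del/+ up with 55, folds of 3.40 (2.11 to 5.11), 3.94 (2.54 to 5.75), 2.75 (1.82 to 3.96) and 3.90 (2.98 to 5.0). In cluster 3 this is the same number as neuronal cell body, and in cluster 2 and Del/+ up it is 2 more. In Kansl1+/- up neuronal cell body was not listed and could hold at most 23 genes. In cluster 4 it was not listed, and its count is fixed at 16 from both sides, since the 16 neuronal cell body genes lie in it and 16 is the most it could hold unlisted.

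The smallest axonal terms could be listed only at a high fold. An unlisted axon initial segment could reach a fold of 14.10 in Del/+ up. An unlisted main axon could reach 5.98 there, 9.63 in cluster 3 and 10.50 in cluster 4. The height of their folds beside those of larger terms is thus set in part by the listing and is given as a description. Axon initial segment (13 background genes) was listed, and so is a member, through Del/+ up alone, where 6 genes stood against 0.284 expected, a fold of 21.16 (7.78 to 45.73) and 46.2% of the genes of the term. In the other up lists and clusters its limit was 3 or 4 genes, and at 3 genes the fold in cluster 3 would still be 25.55, so that a like enrichment there would not have been listed. Main axon (69 background genes) took 8 genes of cluster 3, 6 of cluster 4 and 16 of Del/+ up against 0.623, 0.476 and 1.51 expected. Its folds were 12.83 (5.59 to 24.83), 12.60 (4.66 to 26.82) and 10.63 (6.11 to 17.09), and 23.2% of its genes were in the Del/+ up list. For Kansl1+/- up it could hold at most 7 genes, a fold of up to 6.94. Terms beside these that the rule did not take were node of Ranvier, with 6 of its 16 genes in Del/+ up (fold 17.19, 6.33 to 37.15), and neurofilament, the axonal intermediate filament, with 5 of 10 in Del/+ up and 4 of 10 in cluster 3 (folds 22.92 and 44.28). Perikaryon, the cell body around the nucleus, had 12 of 110 genes in Del/+ up, a fold of 5.0 (2.60 to 8.66).

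The main axon took a larger share of axon part in Del/+ up than in the background, but its listing favours this. An unlisted main axon could hold at most 9 genes there, a fold of 5.98. That already lies above the upper bound of the rest of axon part (5.20), so the contrast is a description only. In Del/+ up the 16 main axon genes were 57.1% (37.2 to 75.5) of the 28 axon part genes, against 27.4% of the background genes of that term. The 12 axon part genes outside the main axon had a fold of 3.01 (1.56 to 5.20), beside the main axon's own 10.63 (6.11 to 17.09). Axon genes outside axon part, 23 in all, had a fold of 4.66 (2.98 to 6.92), and this interval meets that of the main axon. In cluster 3 the main axon made up 66.7% (34.9 to 90.1) of 12 axon part genes and in cluster 4 54.5% (23.4 to 83.3) of 11, and the cluster 4 interval takes in the background's 27.4%. In these clusters the rest of axon part had folds of 2.42 (0.66 to 6.10) and 3.96 (1.29 to 9.05), and axon genes outside axon part had folds of 6.86 (3.80 to 11.25) and 4.49 (1.82 to 9.03). These 4 intervals all meet that of the main axon in the same cluster. Within the main axon of Del/+ up, the 10 genes outside the initial segment had a fold of 8.18 (3.94 to 14.93). This interval meets that of the rest of axon part (1.56 to 5.20).

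Cell projection genes outside neuron projection added little to the broad term. Cell projection (1984 background genes) also covers cilia, microvilli and other protrusions, and neuron projection is 55.2% of it in the background. In Del/+ up neuron projection genes were 95 of the 118 cell projection genes, 80.5% (72.2 to 87.2), and the other 23 stood against 19.4 expected, a fold of 1.19 (0.76 to 1.76). The corresponding folds were 0.86 (0.35 to 1.75) in cluster 2, 1.49 (0.78 to 2.56) in cluster 3 and 0.98 (0.36 to 2.08) in cluster 4. The interval included 1 in these 4 lists. Neuron part genes outside neuron projection had a fold of 2.07 (1.11 to 3.51) in Del/+ up and 0.95 (0.26 to 2.41) in Kansl1+/- up, with 13 and 4 genes, and of 1.52 (0.42 to 3.84), 1.92 (0.63 to 4.41) and 2.52 (0.82 to 5.75) in clusters 2, 3 and 4. The interval of Del/+ up alone excluded 1, and all 5 intervals overlapped.

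**Figure D2:**
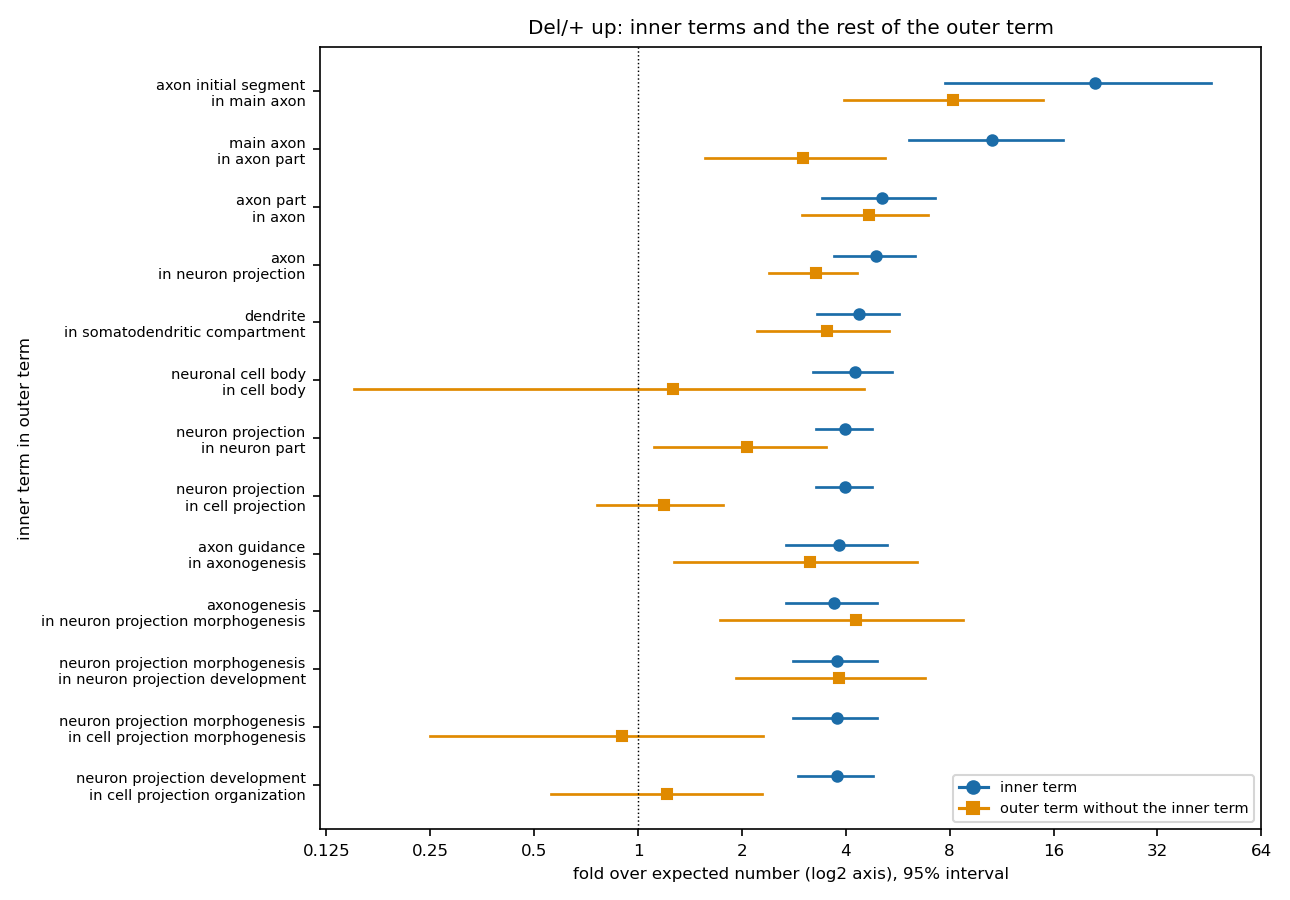
Fold over the expected number in Del/+ up (log2 axis, 95% exact intervals) of an inner term (circles) and of the outer term once the inner genes are taken out (squares), for 13 nested pairs. The intervals of the squares of cell projection, cell projection morphogenesis, cell projection organization and cell body take in 1. The main axon lies above the rest of axon part, but as a small term it could be listed only above a fold of 5.98.

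Among the growth and guidance terms, neuron projection development and cell projection organization were listed for all 6 up lists and clusters. Neuron projection development (716 background genes) held between 20 and 25 genes in each cluster, namely 23, 24, 25 and 20 in clusters 1 to 4, against 4.88, 6.53, 6.47 and 4.94 expected. The folds were 4.71 (3.06 to 6.81), 3.68 (2.40 to 5.32), 3.87 (2.55 to 5.54) and 4.05 (2.53 to 6.04), each inside the other 3 intervals. Kansl1+/- up held 42 genes and Del/+ up 59, folds of 4.01 (2.94 to 5.31) and 3.78 (2.91 to 4.79). For this term the values of the mutants thus lay close together, unlike neuron projection itself, which stood at 2.37 (1.71 to 3.19) in Kansl1+/- up and 3.98 (3.27 to 4.76) in Del/+ up. The wider terms neuron development and neuron differentiation, outside the rule, were listed for the same 6 lists, with folds of 3.60 and 3.51 in Kansl1+/- up and 3.56 and 3.25 in Del/+ up.

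The axonal growth terms reached 4 lists, cluster 1, cluster 3, Kansl1+/- up and Del/+ up. Axonogenesis (509 background genes) took 18, 18, 30 and 41 genes there, folds of 5.19 (3.14 to 7.93), 3.91 (2.36 to 6.03), 4.03 (2.76 to 5.65) and 3.69 (2.68 to 4.94). Most of these were axon guidance genes (407 background genes), the steering of the growing tip by attractive and repulsive cues, with 16, 16, 26 and 34 genes and folds of 5.77 (3.36 to 9.07), 4.35 (2.52 to 6.90), 4.37 (2.89 to 6.29) and 3.83 (2.68 to 5.28). Guidance made up 88.9% (65.3 to 98.6), 88.9% (65.3 to 98.6), 86.7% (69.3 to 96.2) and 82.9% (67.9 to 92.8) of axonogenesis in the same order, and 80.0% of it in the background, a share that lies within all 4 intervals. In clusters 2 and 4 axon guidance was not listed, which allows up to 14 and 12 genes and folds of up to 3.77 and 4.27. The limit of cluster 2 lies below the folds of the 4 lists that have the term and that of cluster 4 below 3 of them, but both limits lie within the intervals of all 4.

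Terms for the shaping of projections were listed for the same 4 lists, and those for regulation for up to 3. Neuron projection morphogenesis (584 background genes) took 20 genes of cluster 1, 23 of cluster 3, 34 of Kansl1+/- up and 48 of Del/+ up, folds of 5.02, 4.36, 3.98 and 3.77. Of the 203 background genes of cell projection morphogenesis that shape no neuron projection, 1, 1, 2 and 4 were in these lists, folds of 0.72, 0.55, 0.67 and 0.90 whose intervals all include 1. Outside neuron projection development, cell projection organization had 4 genes in Kansl1+/- up and 9 in Del/+ up, folds of 0.80 (0.22 to 2.04) and 1.21 (0.56 to 2.29). Regulation of neuron projection development (415 background genes) took 15 genes of cluster 3, 21 of Kansl1+/- up and 33 of Del/+ up, folds of 4.0 (2.27 to 6.45), 3.46 (2.17 to 5.21) and 3.64 (2.53 to 5.05). Regulation of axonogenesis (147 background genes) was listed for cluster 3 alone, with 9 genes and a fold of 6.78 (3.13 to 12.62), and Del/+ up could hold up to 13 of its genes unlisted, a fold of 4.05.

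**Figure D3:**
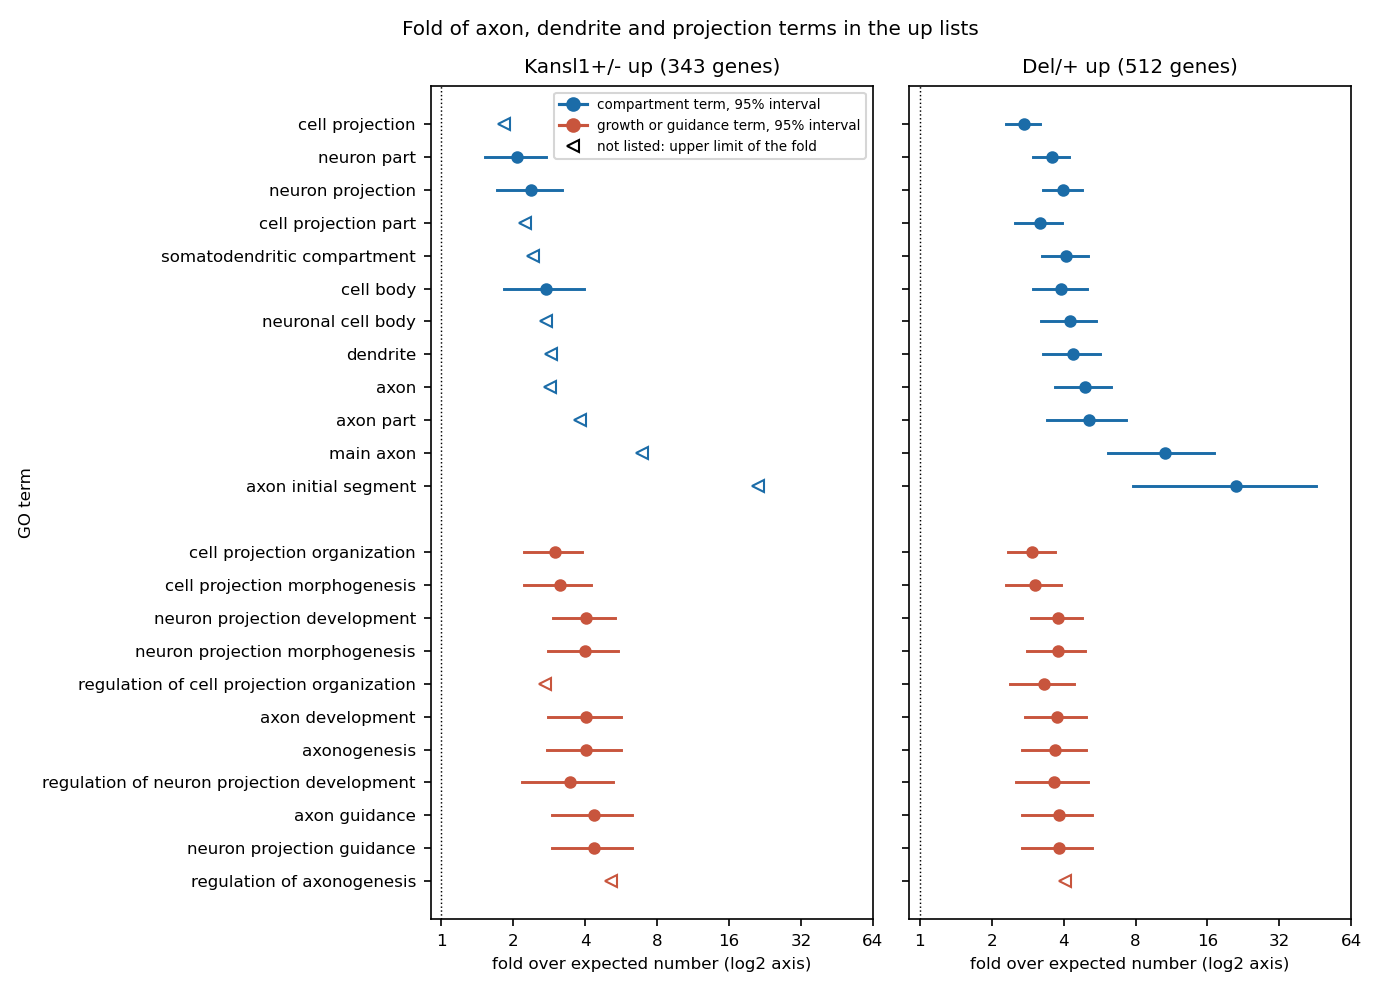
Fold over the expected number (log2 axis) with 95% exact intervals for the compartment (blue) and growth (red) terms in Kansl1+/- up (left) and Del/+ up (right), with open triangles at the highest fold an unlisted term could have. The red points lie between 2.95 and 4.37 in both panels. The blue points lie between 2.08 and 2.75 on the left and between 2.73 and 21.16 on the right. On the left an unlisted axon initial segment could reach 21.05 and an unlisted main axon 6.94, so these ranges also reflect which terms passed the limit.

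Set against each other, compartment terms had the higher median fold in the Del/+ up list and growth terms in the Kansl1+/- up list. In Del/+ up this order depended on how term size was treated. Both kinds stood above the listed terms of their size range, and the excess of the compartment terms was not the larger one. In pairs of nearly equal size, however, the compartment term held more genes in 6 of 7. The median fold in Del/+ up was 4.17 over 12 compartment terms and 3.72 over 10 growth terms, beside 3.16 over all 250 listed terms. In Kansl1+/- up it was 2.37 over 3 compartment terms and 4.01 over 9 growth terms, beside 3.05 over 302. In cluster 3 the medians were 4.44 and 4.0 over 11 terms each, beside 3.42 over all listed terms. In cluster 4 they were 4.21 over 10 compartment and 3.67 over 2 growth terms, beside 4.45. In cluster 2 they were 3.24 over 6 compartment and 3.19 over 2 growth terms, beside 3.53. The 2 growth terms of clusters 2 and 4 were neuron projection development and cell projection organization, and the first lies inside the second. In cluster 1 the 8 growth terms had a median of 5.03, beside 3.99 over 190. Over the listed terms in the size range of the members, the median was 3.64 for the compartment and 3.13 for the growth range in Del/+ up, 2.84 and 3.11 in Kansl1+/- up, 3.91 and 4.05 in cluster 3, 5.03 and 3.79 in cluster 4, 3.12 and 3.18 in cluster 2, and 4.06 for the growth range in cluster 1. In Del/+ up the compartment range runs from 13 to 1984 background genes and takes in 195 of the 250 listed terms, so it does little to match size. There 4.17 stands beside 3.64 and 3.72 beside 3.13, a slightly larger excess for the growth terms. Against these medians, both kinds stood higher in Del/+ up and cluster 2 (in cluster 2 by little, and below the median of the whole table), both stood lower in cluster 4, and the kinds were split in cluster 3 and Kansl1+/- up, with compartment terms higher in cluster 3 and growth terms higher in Kansl1+/- up. The 8 growth terms of cluster 1 stood higher. Terms with synaptic names, which the rule left out, had a higher median than the compartment terms in each of the 5 lists with both, 4.65 over 15 terms in Del/+ up, 4.90 over 6 in cluster 3, 5.38 over 4 in cluster 4, 4.99 over 4 in cluster 2 and 3.51 over 2 in Kansl1+/- up. These medians hold listed terms only, and small terms need a higher fold to be listed, so they also reflect which terms passed the limit. Neuron projection (1095 background genes) and neuron projection development (716) are both listed in the 2 up lists, and their folds take account of term size. In Kansl1+/- up they held 38 and 42 genes, folds of 2.37 (1.71 to 3.19) and 4.01 (2.94 to 5.31), and these intervals overlapped. In Del/+ up they held 95 and 59 genes, folds of 3.98 (3.27 to 4.76) and 3.78 (2.91 to 4.79). There each fold lay within the interval of the other, so the lower count of development goes with its smaller term. The difference between the lists was not tested.

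Pairs of terms of nearly equal size reduce the part of term size, but do not remove it. For 7 of the 12 compartment terms a growth term lay within 10% of its number of background genes, so that almost the same number was expected of both. In Del/+ up both terms of all 7 pairs were listed, the compartment term held more genes in 6, and cell projection part and cell projection organization held 68 each. In cluster 3 the compartment term held more genes in 5 of 7, with 23 genes on both sides in the other 2. In Kansl1+/- up the growth term held more genes in both pairs that could be compared, and in the other 5 the growth term alone was listed. Cluster 1 listed the growth term alone in all 7 pairs. In cluster 4 the compartment term alone was listed in 4 pairs, and of the 2 pairs listed in full each kind led once. In cluster 2 the compartment term alone was listed in 3 pairs, the growth term alone in 1, and the compartment term led in the pair listed in full. Growth terms serve in more than 1 pair and the terms share genes, so the pairs are not independent and were not tested.

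The pair of axon (478 background genes) and axonogenesis (509) is given as an example. The Del/+ up list held 51 axon and 41 axonogenesis genes, and cluster 3 held 26 and 18. Cluster 4 held 18 axon genes and at most 14 axonogenesis genes. The Kansl1+/- up list held 30 axonogenesis genes and at most 20 axon genes, and cluster 1 held 18 and at most 13. In cluster 2 neither was listed, and the limits are 15 axon and 16 axonogenesis genes. Dendrite (523) and axon development (525) ran the same way, with 50 and 43 genes in Del/+ up, 23 and 20 in cluster 3, 18 and at most 14 in cluster 4, at most 22 and 31 in Kansl1+/- up, and at most 14 and 18 in cluster 1. In Del/+ up the intervals of the paired shares overlapped in all 7 pairs, for example 9.96% (7.51 to 12.9) for axon and 8.01% (5.81 to 10.7) for axonogenesis. The pair with the widest gap in Del/+ up was neuron projection and cell projection organization, with 95 and 68 genes, 18.6% (15.3 to 22.2) and 13.3% (10.5 to 16.5).

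**Figure D4:**
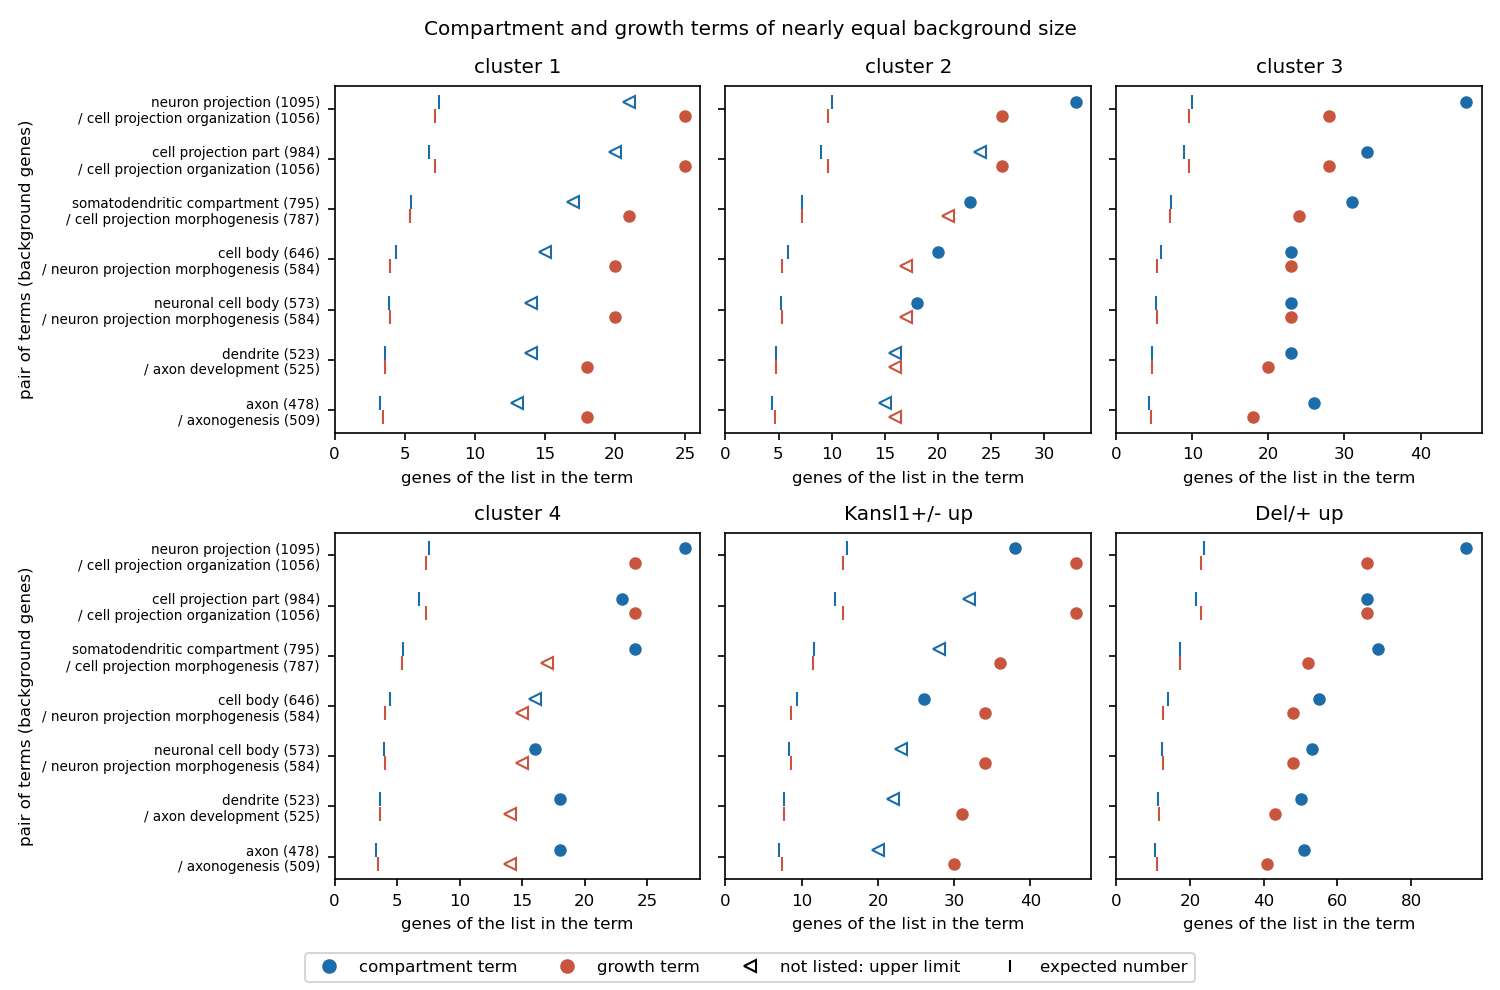
Genes of 6 lists in 7 pairs of a compartment term (blue) and a growth term (red) with nearly the same number of background genes, with open triangles at the highest count of an unlisted term and ticks at the expected number. Red lies to the right of blue in every pair of cluster 1 and Kansl1+/- up, and blue lies level with red or to its right in every pair of cluster 3 and Del/+ up.

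The authors had gathered the terms of each table into blocks of related terms, and compartment and growth members never shared a block. In Del/+ up 9 compartment terms made up a block of their own, 8 growth terms stood among 20 with cell morphogenesis and chemotaxis, and main axon, axon part and axon initial segment stood with node of Ranvier and transmission of nerve impulse. In cluster 3 main axon and axon part were again placed with transmission of nerve impulse. In cluster 4 they were placed with voltage-gated potassium channel complexes, the channels that repolarise the axon after a spike. In cluster 1 and in Kansl1+/- up 8 growth terms sat in a block of 16 with chemotaxis and cell morphogenesis, and the 3 compartment terms of Kansl1+/- up were placed with synaptic transmission, secretion and ion transport.

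The down lists gave no listed member, with limits that depend on term size. For neuron projection the Kansl1+/- down list could hold at most 44 genes and the Del/+ down list at most 35, for axon 25 and 20, and for axon guidance 23 and 18. Over the 19 members with 407 or more background genes, the limits were folds of 1.69 to 2.75 in Kansl1+/- down and 1.83 to 3.13 in Del/+ down. A modest enrichment or a depletion of these terms among the down-regulated genes was therefore not detectable here.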

How the data were processed

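ChIP-seq libraries of 12 mice (3 Del/+, 3 Kansl1+/-, 6 wt) were aligned by the authors with BWA 0.6.2 (the submitters' processing notes name mm9), and DESeq2 set the promoters of 3 mutant libraries against those of all 6 wt libraries, with calls at p below 0.01 before any correction. Up-regulated genes were then clustered. The deposited files are 8 tables of GO terms with p below 1e-05. They carry no title, so the gene list that each describes was taken from the study's titles of its supporting tables. The count of list genes and of background genes was used from each, together with the deposited expected number and p, both handled as a score, the p being read to find the limit of the listing. The deposited fold and corrected p columns hold the authors' own comparisons and were not used.

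The background (23468 genes) and the 8 list sizes were recovered from the printed expected numbers, with 1 solution among backgrounds of 15000 to 40000. The sizes recovered for each mutant, up and down lists together, are larger than the promoter numbers in the text of the study, and the reason is not given in the sources used here. The procedure was tested on simulated data and recovered 5 of 5 sets. Fold is the count over list size times term size over background. Shares have exact 95% Clopper-Pearson intervals, scaled for folds. The limit of an unlisted term is the largest count whose one-sided hypergeometric p stays at or above 1e-05, and 0 of 1076 listed terms lay below it. The table of nested terms was written by hand from knowledge of GO and not read from a GO release, with axonogenesis inside both axon development and neuron projection morphogenesis, a change from the nesting first planned. All counts of genes outside an inner term rest on it. No nested count exceeded its outer count (107 comparisons).

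Growth terms are members named for development, morphogenesis, organization, genesis, guidance or regulation. All members are named, and neighbours outside the rule were fixed by name. Members and lists were chosen with earlier results of these data known, and after supplementary copies of the tables had been read. The lists overlap and share wt libraries, so no test was made between them. Computations ran in Python 3.11.15 with scipy 1.17.1 and numpy 2.4.6, and plots in matplotlib 3.10.9.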

Additional observations from a re-analysis of the deposited data

How the results depend on the processing

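Of 109 values recomputed under other settings, 104 kept their order and stayed within 1.5 times (counts) or within the 95% interval of the middle term (medians and ratios), 3 counts moved by more and 2 ratios reversed. In cluster 2 the median fold of compartment terms over that of growth terms was 1.02, and it fell to 0.88 without the terms that also cover cells other than neurons and to 0.92 with terms of at most 1000 background genes, so no order of the kinds holds there. Without those broader terms, which cover neurons and other cells, cluster 2 listed 5 members in place of 8 and cluster 1 6 in place of 8. Cluster 3 and Del/+ up then listed 16 in place of 22, and cluster 4 and Kansl1+/- up 9 in place of 12. With partners within 5% in size, the compartment term held more genes in 3 of 4 pairs of cluster 3. With folds in place of counts it led in 2 of 2 pairs of cluster 4, 6 of 7 of cluster 3 and 7 of 7 of Del/+ up. The exception in cluster 3 was cell body, at 3.94 against 4.36 for neuron projection morphogenesis. These shifts come from the fewer terms or pairs compared, or from the small size gap within a pair. At a listing limit of 1e-06 the 7 bounds tried rose by 1 or 2 genes, for axon in Kansl1+/- up from 20 to 22.

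No paired analysis was possible because the tables hold no value per library, and leaving out each library in turn could not be run for the same reason. The lists rest on uncorrected promoter calls against shared wt libraries, with unknown depth. The intervals treat genes as independent and cover neither the spread between mice nor errors in the lists. Terms not listed are bounded and were not read as 0.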
